A study of Homo sapiens with 6 samples.

Results

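The centromeres of human chromosomes 2, 11, 17, 18 and 20 were described by the H3K9me3 peaks that lie in them. A peak was a member when its midpoint fell in 1 of 5 fixed windows of the genome build hg38 (GRCh38). These were 92.0 to 94.2 Mb on chromosome 2, 50.5 to 55 Mb on chromosome 11, 22.5 to 27.0 Mb on chromosome 17, 15.2 to 21 Mb on chromosome 18 and 25.6 to 30.5 Mb on chromosome 20, 21.9 Mb in all. The windows held 3424 of 22627 peaks in the control list, 2664 of 14087 in the PURPL guide 1 list and 2589 of 11721 in the PURPL guide 2 list, counted on chromosomes 1 to 22 and X. The rule for a member used its position alone. The windows themselves were picked with earlier results of these data known.

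The study used BJ cells, a line of human skin fibroblasts, in which CRISPR interference (a guide RNA that carries a repressor to a gene) targeted PURPL, a long non-coding RNA gene. The 3 cell lines carried the control guide sgCtrl, the guide sgRNA-PURPL#1 or the guide sgRNA-PURPL#2, and all 3 shared the same BJ background. Each line gave 1 H3K9me3 library and 1 input library, so differences between lines have no replicate check and no p-value is given. The PURPL transcript was not analysed here and the read depth is unknown. The guide, the depth of its library and the individual line therefore cannot be told apart.

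A human centromere is built on alpha satellite, a short DNA unit repeated head to tail and arranged in larger repeats that differ between chromosomes. These larger repeats fall into families by the types of unit they contain. Chromosomes 2, 18 and 20 carry the second family, and chromosomes 11 and 17 carry the third, as does chromosome X. H3K9me3, the trimethylated form of lysine 9 on histone H3, marks constitutive heterochromatin and is bound by HP1 proteins. It is abundant in the satellite repeats around the core of the centromere, where the histone variant CENP-A builds the kinetochore. In GRCh38 these arrays are represented by modelled sequence, so a position in them stands for a type of repeat rather than for 1 certain place. Near-identical repeats also mean that a read can fit many places. How such reads were handled is not given in the sources used here, and its part in the values below was not tested.

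All 5 windows had a shorter length under peaks with each PURPL guide than with the control guide. The control peaks covered 5696 kb, the guide 1 peaks 3269 kb and the guide 2 peaks 3024 kb. The guides thus had 57.4% and 53.1% of the length seen with the control guide, called the length left below. The length left counts every guide base, on or off a control peak, so it is not the share of control bases retained. Of the control bases, 44.3% lay under guide 1 peaks and 40.3% under guide 2 peaks, with 23.3% and 25.1% on chromosome 18. Over the remaining peaks of the same 5 chromosomes 28.4% and 12.4% was left, and over the whole lists 52.4% and 40.3%. The windows therefore made up a larger share of each guide list than of the control list, at 19.3% (guide 1) and 23.2% (guide 2) of all length under peaks against 17.6%. Gene-free intervals of 18 other chromosomes, described below, had a median of 64.2% left with guide 1 (17.9% to 80.9%). With guide 2 their median was 54.6% (21.9% to 70.6%), so the 5 windows did not stand out from them.

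**Figure D1:**
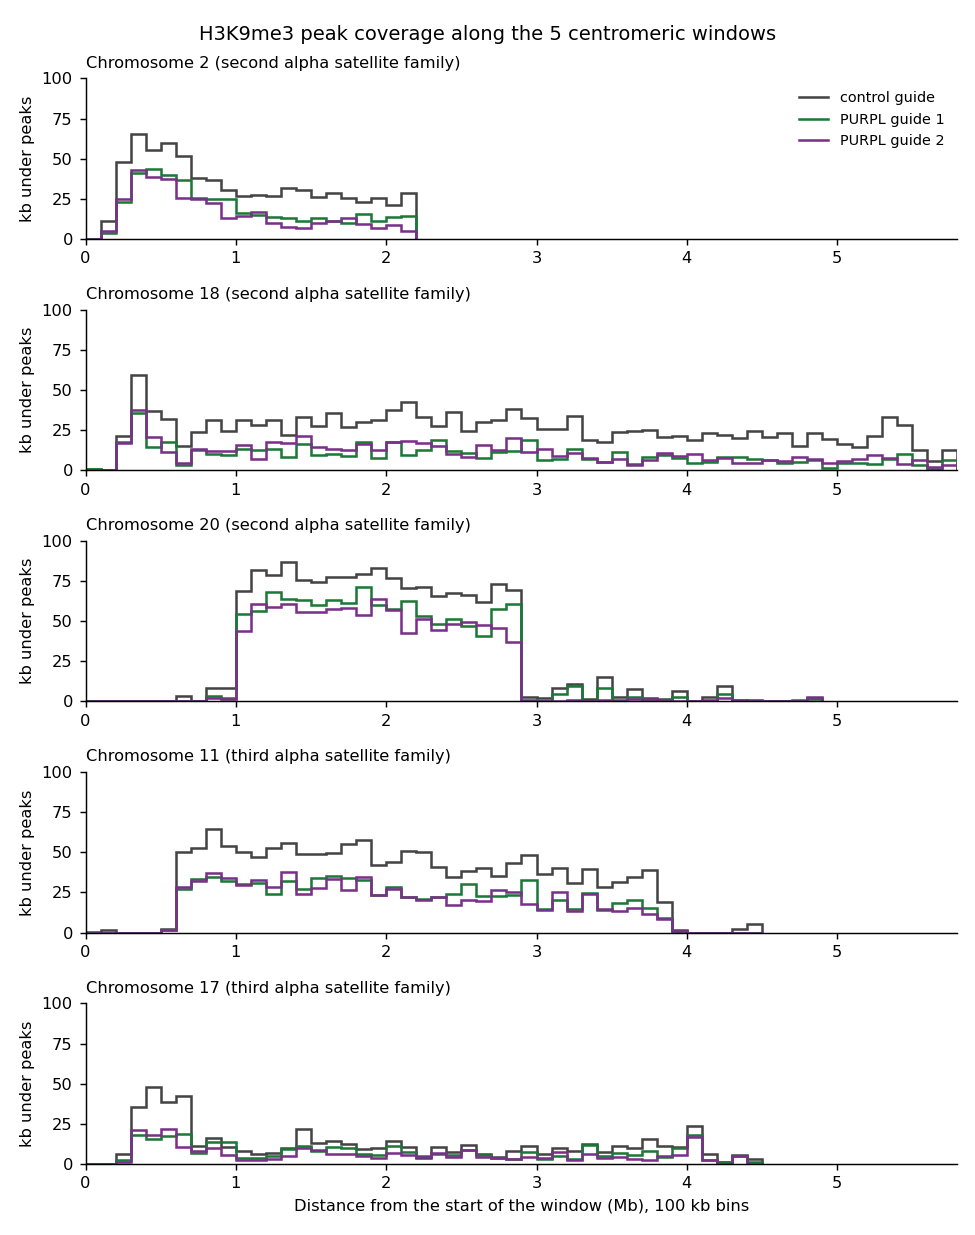
Length under H3K9me3 peaks (kb, vertical axis) in 100 kb bins against distance from the start of each window (Mb, horizontal axis), with 1 panel per chromosome and 1 line per cell line. Chromosome 20 holds 1 dense block of 19 bins, with 61.7 to 87.0 kb per bin in the control, and chromosome 17 a short dense stretch followed by low coverage.

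Chromosome 2, of the second family, had control peaks over 32.6% of its window, guide 1 peaks over 19.1% and guide 2 peaks over 15.9%. The number of peaks was 469, 408 and 339, and the length under them 718, 419.8 and 350.1 kb. The length left was 58.5% with guide 1 and 48.8% with guide 2. The densest of 5 equal segments lay towards the short arm: between 92440001 and 92880000 the control covered 212 kb, guide 1 147 kb and guide 2 125 kb. Between 93320001 and 93760000 the same lists covered 121, 47.2 and 36.0 kb. The share left was thus 69.3% and 59.2% in the former and 39.0% and 29.7% in the latter.

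The widest control peak of chromosome 2, from 92585584 to 92598003 (12.4 kb), held 3 guide 1 peaks over 5324 bp and 2 guide 2 peaks over 3038 bp. The highest-scoring control peak, from 92790579 to 92790934, was only 356 bp wide. It overlapped a guide 1 peak over 243 bp, and no guide 2 peak, the nearest being 491 bp away. The score is the authors' own value per peak, on a scale that the sources used here do not name, and it serves below only to rank peaks within a list.

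Chromosome 18, of the second family, had the lowest share of control length left of the 5 windows with either guide, though not under each alternative. Its 1178 control peaks covered 1461 kb, 25.2% of the window. The 638 guide 1 peaks covered 541 kb and the 721 guide 2 peaks 609 kb, so 37.0% and 41.7% was left. It was also the one window of the 5 in which guide 2 had more peaks and a longer length than guide 1, at 113% of the guide 1 length, where the other 4 windows had 81.0% to 94.9%. This order did not hold among peaks with a score at or above the median of the pooled lists, where guide 2 had 89.4% of the guide 1 length. With the same number of highest-scoring peaks taken from each list, chromosome 11 also had a longer guide 2 length, at 106% of guide 1. In that setting 65.9% of the control length was left on chromosome 18 with guide 2, above chromosomes 2 (53.9%), 17 (58.3%) and 11 (61.9%), while with guide 1 chromosome 18 was still the lowest, at 50.3%. In the rest of chromosome 18 guide 2 had 39.4% of the guide 1 length.

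Along chromosome 18 the share left was higher on the short arm side than on the long arm side. Over 5 equal segments of 1160 kb it was 49.0%, 37.3%, 37.8%, 32.0% and 24.9% with guide 1. With guide 2 it was 50.4%, 49.97%, 39.8%, 31.5% and 30.9%. The control length in these segments was 294, 365, 332, 257 and 213 kb. The densest 100 kb bin was the same in all 3 lists, from 15500001 to 15600000, where the control covered 59.6 kb, guide 1 35.8 kb and guide 2 37.7 kb.

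Wide peaks were absent from chromosome 18 with both guides: 13 control peaks measured at least 5000 bp, against 0 with guide 1 and 0 with guide 2. Over the whole lists 936 control, 310 guide 1 and 178 guide 2 peaks had that width, so wide peaks were fewer there too. The widest control peak of chromosome 18, from 20586457 to 20597563 (11.1 kb), held 3 guide 1 peaks over 2568 bp and 5 guide 2 peaks over 1886 bp. The widest guide peaks measured 4795 and 4729 bp and lay near the short arm end, at 15494769 to 15499563 and at 15521801 to 15526529. The highest-scoring control peak, from 16265084 to 16266243, was also the place of the highest-scoring guide 1 peak (355 bp, inside it), and a guide 2 peak covered 1127 of its 1160 bp.

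Chromosome 20, of the second family, stood at the other end, with 76.2% of the control length left with guide 1 and 66.9% with guide 2. The control peaks covered 1502 kb of it, the guide 1 peaks 1144 kb and the guide 2 peaks 1005 kb. The peaks numbered 434, 505 and 492, so the guide peaks outnumbered the control peaks (116% and 113% of their number) while covering less. The number depends on how peaks are delimited and ranked. With peaks within 5000 bp merged it was 75.0% and 66.1% of the control number, and it was 78.6% and 73.4% when peaks below the median score of the pooled lists were left out. In that second setting the length left on chromosome 20 was 48.1% and 41.7%, and with guide 1 this was below chromosomes 17 (52.3%) and 2 (50.6%), so chromosome 20 was no longer the highest.

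Nearly all of this length lay in 1 block. The 19 consecutive bins from 26600001 to 28500000 held 93.7% of the control length in the window, 96.2% of the guide 1 length and 98.6% of the guide 2 length. Within the block 74.0% of all bases lay under control peaks, 57.9% under guide 1 peaks and 52.2% under guide 2 peaks. The share left was 78.3% and 70.5% inside the block and 45.6% and 14.8% in the remaining 30 bins of the window, where the control covered only 94.8 kb. The stretch was chosen by its control length (at least 20 kb in every bin), so these shares are a description.

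The widest peak of the 5 windows lay in that block, from 26962772 to 26995595 (32.8 kb). It held 8 guide 1 peaks over 23886 bp and 8 guide 2 peaks over 23900 bp, so 72.8% of it was covered in each guide. At the long arm edge of the block a narrow peak from 28498180 to 28498923 had the highest score of the window in all 3 lists. Its score percentile, the share of a list's peaks with the same or a lower score, was 99.9 in the control, 99.9 in guide 1 and 99.8 in guide 2. A guide 1 peak covered all 744 bp of it and a guide 2 peak 727 bp. Beyond that edge, between 28540001 and 29520000, the control covered 59.1 kb, guide 1 30.1 kb and guide 2 4.71 kb.

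Chromosome 11, of the third family, had 834 control peaks over 1469 kb, 734 guide 1 peaks over 835 kb and 707 guide 2 peaks over 792 kb. The length left was 56.8% with guide 1 and 53.9% with guide 2, the closest pair of values among the 5 windows. The dense part was 1 run of 32 bins from 51100001 to 54300000. It held 97.8% of the control length, and 98.7% of the length in each guide, with 44.9%, 25.7% and 24.4% of its bases under peaks. The control peaks reached from 50579357 to 54984980, the guide 1 peaks from 51092041 to 54416293 and the guide 2 peaks from 51092007 to 54418780.

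The widest control peak of chromosome 11, from 51328885 to 51339463 (10.6 kb), held 3 guide 1 peaks over 2771 bp and 4 guide 2 peaks over 6912 bp. A peak from 51374518 to 51374939 had the highest score of the window in all 3 lists. Its 422 bp held 325 bp of a guide 1 peak and 365 bp of a guide 2 peak. The highest-scoring control peak with no guide 2 peak, from 54021020 to 54021411, had a score percentile of 99.6. A guide 1 peak covered 257 of its 392 bp, and the nearest guide 2 peak lay 9424 bp away.

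Chromosome 17, of the third family, had the thinnest cover and the highest scores. Control peaks lay over 12.1% of the window, guide 1 peaks over 7.33% and guide 2 peaks over 5.94%. The 509 control peaks covered 547 kb, the 379 guide 1 peaks 329.9 kb and the 330 guide 2 peaks 267 kb, which left 60.4% and 48.9%. The short arm end was the densest part, with 4 bins from 22800001 to 23200000 in which the control covered 164 kb, guide 1 68.9 kb and guide 2 70.7 kb. There 42.2% and 43.2% was left, against 68.1% and 51.3% in the other 41 bins. The stretch was chosen by its high control length, which is also the denominator of the share left, so nothing is read from the lower share there.

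Peaks with high scores were concentrated in the chromosome 17 window. In the highest 1% of scores of the whole list stood 25 control, 16 guide 1 and 11 guide 2 peaks of chromosome 17, against 5, 3 and 3 from the other 4 windows together. Of the 134 control peaks of this window in the highest decile of score, 40 and 39 lay in the last 2 of 5 equal segments, those towards the long arm. With guide 1 these segments held 20 and 29 of 81 such peaks, and with guide 2 20 and 10 of 55. The peak from 26603631 to 26604329 (699 bp) had the highest score of the window in the control and the guide 1 list, and 26619450 to 26620189 (740 bp) had it in the guide 2 list. Guide 1 and guide 2 peaks covered 653 and 647 bp of the former. A guide 2 peak from 26880907 to 26885961 (5055 bp), the widest of that list on chromosome 17, lay whole under 1 peak of the control and 1 of guide 1.

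Some strong peaks of chromosome 17 were found in 1 list alone or in 2. The highest-scoring control peak with no guide 1 peak, from 25788505 to 25788747, was matched by guide 2 over 233 of 243 bp, and the nearest guide 1 peak lay 6947 bp away. The highest-scoring one with no guide 2 peak, from 24888006 to 24889485, was matched by guide 1 over 1465 of 1480 bp, and the nearest guide 2 peak lay 8561 bp away. A guide 1 peak from 23804435 to 23804674 had a score percentile of 99.3, with the nearest control peak 11171 bp and the nearest guide 2 peak 18414 bp away.

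The families did not separate by the share of control length left. With guide 1 the second family windows had 37.0% to 76.2% (mean 57.2%) and the third family windows 56.8% to 60.4% (mean 58.6%). With guide 2 they had 41.7% to 66.9% (mean 52.5%) and 48.9% to 53.9% (mean 51.4%). The difference of the means, the second family minus the third, was -1.36 percentage points with guide 1 and 1.06 with guide 2, and the range of the third family lay inside that of the second. The second family mean joined the lowest and the highest of the 5 windows: without chromosome 18 the difference was 8.74 and 6.44 percentage points, and without chromosome 20 it was -10.8 and -6.17. Without chromosome 17 it was 0.41 and -1.48. The 5 windows share their 3 libraries and are no replicates of a family, so no test was made.

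The family means differed in the share of high-scoring peaks, and less so without chromosome 17. The ranges of the families did not overlap in the control and with guide 1, but they did with guide 2. In the control 1.61% to 13.6% of the second family peaks per window lay in the highest decile of score of the list, against 14.03% and 26.3% on chromosomes 11 and 17. With guide 1 the values were 0.792% to 3.92% and 5.86% and 21.4%, and with guide 2 1.11% to 6.78% and 3.11% and 16.7%, where chromosome 2 stood above chromosome 11. The means differed by -14.1, -11.3 and -6.85 percentage points in the control, guide 1 and guide 2, and by -7.95, -3.56 and -0.0738 without chromosome 17. Without chromosome 11 they differed by -20.2, -19.1 and -13.6.

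Peaks were narrower with both guides in each of the 5 windows. Over all windows the control peaks had a median width of 1081 bp (quartiles 526 and 1999 bp), the guide 1 peaks 844 bp (403 and 1510.2 bp) and the guide 2 peaks 831 bp (392 and 1461 bp). On chromosome 20 the medians were 2150.5, 1620 and 1478.5 bp, the widest of the 5, and on chromosome 17 they were 807, 692 and 617.5 bp, the narrowest in the control and in guide 2. Chromosome 18 had 982, 640.5 and 641 bp, chromosome 2 had 1171, 830.5 and 828 bp, and chromosome 11 had 1209.5, 868.5 and 876 bp. Over the whole lists the medians were closer, at 858, 810 and 785 bp.

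**Figure D2:**
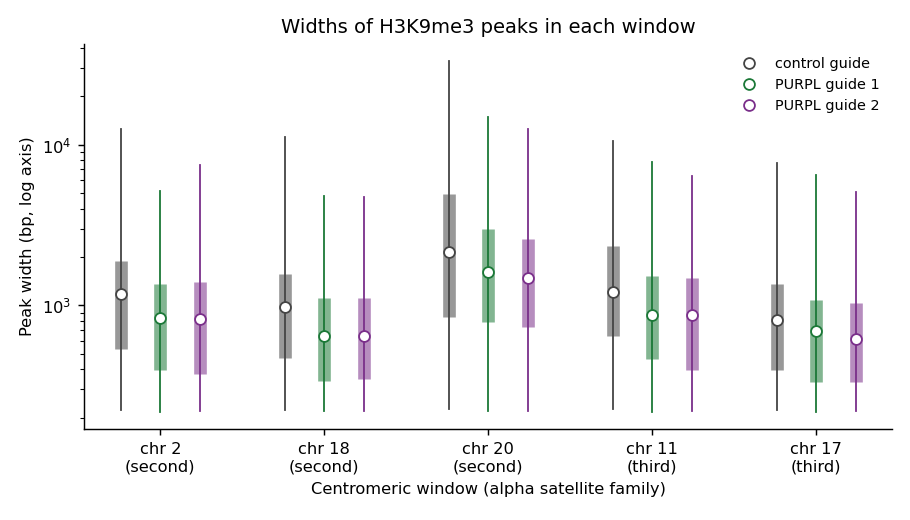
Peak width (bp, log axis) in each window, with a circle at the median, a thick bar from the first to the third quartile and a thin line from the narrowest to the widest peak, by cell line. The control median lies above both guide medians in all 5 windows.

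Over the 5 windows together, most wide domains of the control held 2 or more guide peaks. Of the 178 control peaks of at least 5000 bp in the 5 windows, 104 lay on chromosome 20. Guide 1 had 2 or more peaks in 149 of the 178, 1 in 28 and 0 in 1, over a median of 61.7% of the peak. Guide 2 had 2 or more in 145, 1 in 31 and 0 in 2, over a median of 52.6%. Chromosome 18 differed: of its 13 wide control peaks 6 held 2 or more guide 1 peaks and 8 held 2 or more guide 2 peaks. The median covered there was only 20.0% and 27.5%. Guide peaks per wide control peak were not counted over the whole lists. The windows held 54 guide 1 peaks and 47 guide 2 peaks of that width, and the control had 2 or more peaks in 33 and 25 of them, over a median of 84.7% and 85.1%. Choosing the widest peaks of any list favours peaks that another list divides, so the values in both directions are given. Over the whole lists 936 of 22627 control peaks measured at least 5000 bp. With guide 1 it was 310 of 14087, and with guide 2 178 of 11721. A lower share of wide peaks with the guides was thus not particular to the windows.

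Control peaks of these windows were overlapped by guide peaks more often than control peaks in general. Of the 3424 control peaks 1394 had no guide 1 peak (40.7%), against a background of 57.2% of all control peaks, and 1497 had no guide 2 peak (43.7%), against 63.8%. The share with a guide 1 peak was 59.3% (95% Wilson interval 57.6 to 60.9) and that with a guide 2 peak 56.3% (54.6 to 57.9). In the rest of the same 5 chromosomes it was 15.3% and 7.24%. Control peaks there had a median width of 636 bp, and the part of width and density in the overlap was not tested. The intervals cover counting error only.

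Chromosome 18 again stood apart from the other 4 windows. There 41.2% of the control peaks had a guide 1 peak (38.4 to 44.0) and 44.0% a guide 2 peak (41.2 to 46.8), close to the 42.8% of the whole control list for guide 1 and above its 36.2% for guide 2. Chromosome 20 had 77.0% (72.8 to 80.7) and 72.1% (67.7 to 76.1), and chromosome 11 had 70.1% and 67.0%. Chromosome 2 had 65.9% and 57.4%, and chromosome 17 had 62.3% and 52.7%. By family the shares were 54.2% and 52.9% in the second and 67.2% and 61.6% in the third. Chromosome 18 held 1178 of the 2081 second family peaks, and without it the direction turned, with 71.2% and 64.5% of the 903 peaks of chromosomes 2 and 20. Without chromosome 11 the guide 2 shares differed by 0.207 percentage points. By bases the families were close, with 44.2% and 40.5% of the control bases under guide peaks in the second and 44.3% and 39.8% in the third.

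**Figure D3:**
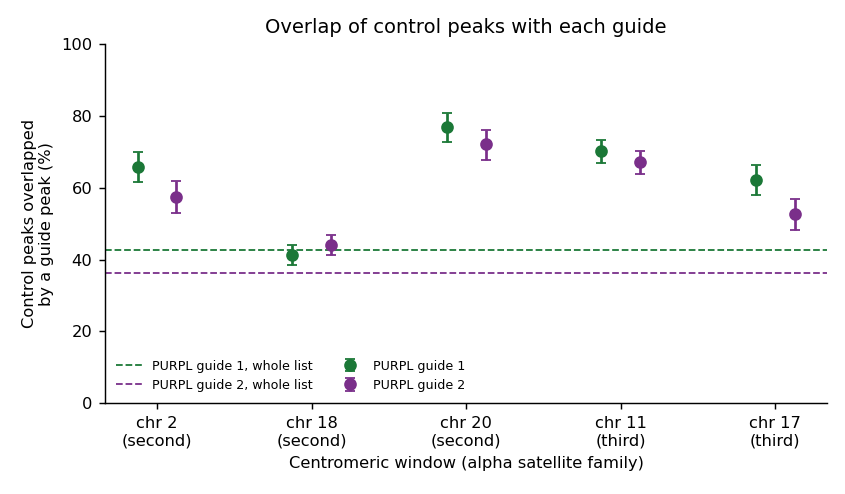
Share of control peaks (%) overlapped by at least 1 bp of a guide peak in each window, with 95% Wilson intervals that cover counting error only. Dashed lines give the whole control list, 42.8% for guide 1 and 36.2% for guide 2, and the chromosome 18 window lies nearest to them.

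Overlap followed the width and the rank of the control peak. Of the 820 control peaks under 500 bp in the windows, 36.3% had a guide 1 peak and 31.5% a guide 2 peak. Of the 678 peaks of 2000 to 4999 bp, 84.7% and 82.6% did. A wider peak also offers more bases to overlap. Between these widths the share of bases under guide peaks differed less, from 30.8% and 25.7% to 43.5% and 40.0%. Of the 178 peaks of at least 5000 bp, 99.4% and 98.9% were overlapped, and 60.0% and 53.5% of their bases lay under guide peaks. Among the 357 control peaks in the highest decile of score 76.5% and 70.9% were overlapped, with 56.3% and 50.6% of their bases. Among the 924 at or below the median score of the list it was 34.8% and 34.8%, with 20.6% and 21.2% of their bases. At each width below 5000 bp the third family peaks were overlapped more often, as at 1000 to 1999 bp, where 72.8% (68.2 to 77.1) and 67.1% (62.2 to 71.6) had a guide peak against 54.2% (50.2 to 58.1) and 53.8% (49.9 to 57.7) in the second. Without chromosome 18 the second family had 69.6% (63.5 to 75.1) and 60.8% (54.4 to 66.8) at that width, with intervals that overlap those of the third. At 2000 to 4999 bp it then had 92.6% and 88.8%, above the 89.4% and 84.7% of the third.

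Most guide peaks in the windows lay on control peaks. Of the 2664 guide 1 peaks 354 had no control peak (13.3%), against 20.8% in the whole guide 1 list, and of the 2589 guide 2 peaks 358 (13.8%), against 17.1%. The shares were highest on chromosome 18 (20.2% and 24.1%) and lowest on chromosome 20 (8.32% and 4.88%). By length, 77.1% of the guide 1 bases and 75.8% of the guide 2 bases lay under control peaks. Over the whole lists it was 75.3% and 77.0%, so by length the windows lay near the background. The guide lists also met each other: 66.2% of guide 1 peaks met a peak of guide 2, and 69.1% of guide 2 peaks met one of guide 1. Over the whole lists the shares were 54.96% and 68.6%. The guide 1 share of the windows thus lay above the background, and the guide 2 share lay near it. Chromosome 20 had 83.4% and 89.0%, above both background values. Chromosome 18 had 52.2% with guide 1, near the background, and 46.9% with guide 2, below it.

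The share left was then read in 100 kb bins with at least 5000 bp of control length. In the windows 83 of 177 such bins had less than 50% of the control length with guide 1 (46.9%), against a background of 43.2% of 877 bins over all chromosomes, so the windows lay near the background. With guide 2 it was 92 of 177 (52.0%), against 59.6%. Chromosome 18 had 49 of 56 bins below 50% with guide 1 and 38 of 56 with guide 2. Chromosome 20 had 5 and 8 of 27, chromosome 11 had 9 and 13 of 34, chromosome 17 had 11 and 21 of 39, and chromosome 2 had 9 and 12 of 21. Guide 1 exceeded the control in 1 bin, on chromosome 17, and guide 2 in 0 of the 177.

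**Figure D4:**
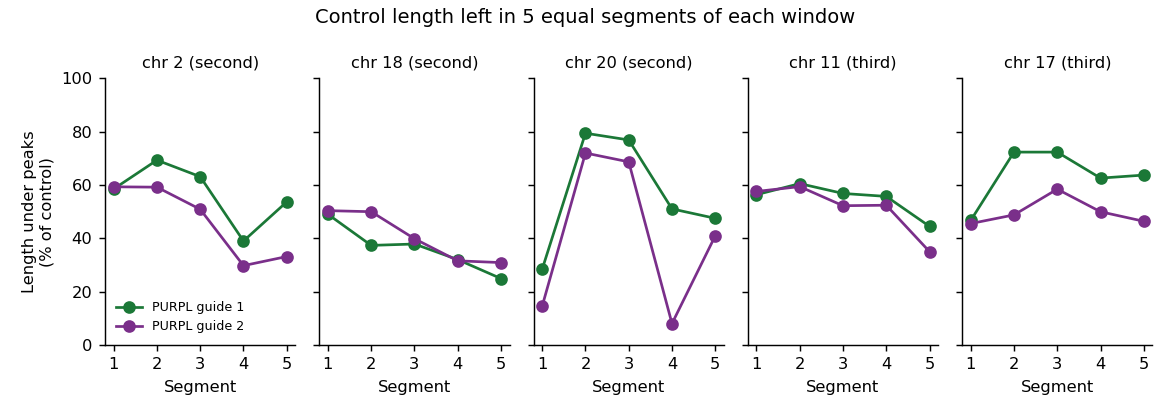
Length under peaks as a percent of the control (vertical axis) in 5 equal segments of each window, numbered from the short arm side (horizontal axis), for PURPL guide 1 and PURPL guide 2. On chromosome 18 the values go from 49.0% to 24.9% and from 50.4% to 30.9%, and on chromosome 20 segments 2 and 3 hold 68.7% to 79.4%.

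Of 95 annotated genes that overlap a window 5 are protein-coding and 69 are pseudogenes, 58 of the 95 lie on chromosome 20, and 6 had a base under a peak in any list inside the windows. Over all chromosomes 7.97% of 59098 annotated genes had one, so 6 of 95 lay near the background. Of the 17 promoters tabulated for these windows 0 overlapped a peak in any list, against 0.183% of 34961 promoters in all.

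The 6 genes with peaks lay on chromosome 20, and 4 of them were pseudogene copies of FRG1, a gene first known from the facioscapulohumeral dystrophy region. FRG1DP (29080390 to 29096832) had 8467, 1728 and 0 bp under control, guide 1 and guide 2 peaks, and FRG1CP (28580633 to 28602665) had 1473, 0 and 0 bp. FRG1BP (30377164 to 30419843) had the most with guide 2, at 869, 744 and 1820 bp, and FRG1EP (29475879 to 29497334) had 0, 0 and 234 bp. These copies are alike in sequence, so the copy that a read came from is uncertain. MIR663AHG, the host gene of miR-663a (26187019 to 26209233), had 2078, 0 and 0 bp. The gene table gives no exons, so the exonic or intronic place of these peaks is not known.

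The 5 chromosomes were set beside the others by a common rule, the longest gene-free interval of 1 Mb or more, between adjacent RefSeq genes, with at least 100 control peaks. Of the 23 such intervals, 1 per chromosome, guide 2 covered a longer length than guide 1 in 2, those of chromosomes 18 and X, at 113% and 122% of the guide 1 length, against a median of 86.5%. Guide peaks outnumbered control peaks in 6 of the 23 with each guide, so chromosome 20 was not alone in this. Chromosome X, of the third family, had a control length of only 294 kb, and a length left of 17.9% and 21.9%. That was far below chromosome 11 (57.1% and 54.2%) and chromosome 17 (60.4% and 48.9%). Chromosome 1, grouped with both the first and the third family, had 75.5% and 60.1% left. The 8 second family intervals on other chromosomes had 58.5% to 80.9% left (guide 1) and 50.6% to 68.9% (guide 2). Chromosome 18 (37.0% and 41.7%) lay below that range with both guides. Chromosome 2 (58.5% and 48.8%) was at its lower end with guide 1 and below it with guide 2, and chromosome 20 (77.7% and 69.8%) was inside it with guide 1 and above it with guide 2. The 8 first family intervals had 42.0% to 80.2% left (guide 1) and 38.6% to 70.6% (guide 2). Chromosome 18 lay below their range with guide 1 but inside it with guide 2, where chromosome 12 had 41.8% and chromosome 16 had 38.6%.

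**Figure D5:**
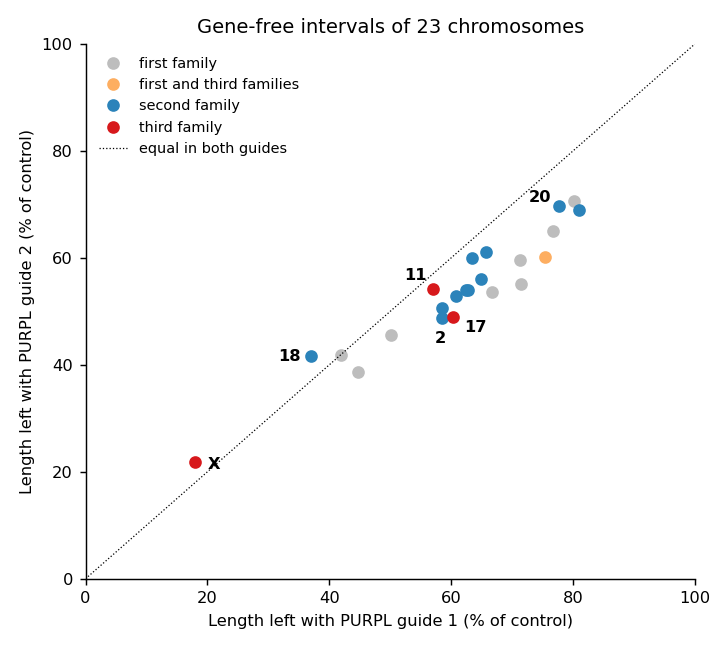
Length under peaks as a percent of the control, with PURPL guide 1 (horizontal axis) against PURPL guide 2 (vertical axis), in the gene-free interval of each of 23 chromosomes. Colours give the alpha satellite family, and chromosomes 2, 11, 17, 18, 20 and X are labelled. The dotted line marks equal values, and chromosomes 18 and X lie above it.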

How the data were processed

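BJ fibroblasts with 1 of 3 guides were profiled by H3K9me3 ChIP-seq, with 6 libraries in all (1 H3K9me3 and 1 input per line). Per the submitters' processing notes, the builds were hg38 and GRCh38.p13 and the tools included MACS2 2.2.9.1, deepTools 3.5.1, GATK and Bowtie2 2.4.2. How peaks were called, whether the input entered and how many reads were sequenced is not given in the sources used here. For every H3K9me3 library the authors deposited 1 peak list, with positions and a score per peak, and the lowest score was 10. Each list was assigned to the sample whose title its file name matches, since the guide names in its peak names differ from the labels. Replicate error and depth could not be estimated.

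Covered length is the union of peak bases. Overlap needed 1 bp, wide peaks measured at least 5000 bp, bins spanned 100 kb, and shares carry 95% Wilson intervals that cover counting error only. The calculations used pandas 2.3.3, scipy 1.17.1 and numpy 2.4.6 in Python 3.11.15, with figures from matplotlib 3.10.9, and were tested on simulated data. Gene positions came from the RefSeq table of GRCh38, and no exon structure was used. Chromosomes 1 to 22 and X were analysed.

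The windows and lists were chosen with earlier results of these data known. Named peaks are, per window, the widest and the highest-scoring peak of each list and the highest-scoring peaks without a counterpart; from these the text gives a part. Genes named carry a peak, with at most 5 per window, and 1 other on chromosome 20 is not named. The bin threshold, the dense runs, the score decile, the comparison between the guides, the family values without chromosome 18 and the minimum of 100 control peaks in gene-free intervals were added after the data were seen. The alternatives were other overlap rules, score filters, equal peak numbers, merged peaks, other window edges and leaving out each chromosome.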

Additional observations from a re-analysis of the deposited data

How the results depend on the processing

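With 1 library per line nothing here measures the spread between cultures, and the unknown depth limits every difference between lists. Values for guide 1 come before those for guide 2. The length left over the 5 windows was 44.4% to 63.5% and 37.5% to 64.2% under the alternatives other than leaving out a chromosome. The following values moved, and the cause was not tested.

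With only the 11721 highest-scoring peaks of each list, the families differed by 0.50 and 3.84 percentage points in length left, 63.4% and 64.1% of control peaks were overlapped, and 22.6% and 26.1% of guide peaks had no control peak. The number of guide 2 peaks was then 104.6% of the control (106% on chromosome 11 and 109% on chromosome 18). The median width was 1229 bp in the control and 898 bp with guide 1. Guide 2 had 101% of the guide 1 length, and 106% on chromosome 11. On chromosome 18 65.9% of the control length was left with guide 2, no longer the lowest of the 5 windows.

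With peaks merged within 5000 bp, the families differed by 0.786 and 5.38 percentage points. The number of peaks was 133.8% and 132% of the control, with 162% and 160% on chromosome 2, 250% and 257% on chromosome 11, 101% with guide 1 on chromosome 17, 145% and 147% on chromosome 18, and 75.0% and 66.1% on chromosome 20. Overlap was 73.2% and 67.8%, guide peaks without a control peak 8.14% and 8.97%, and the median widths 5137.5, 2705 and 2379 bp.

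With a score of at least 22, the pooled median, the families differed by -4.18 and -3.24 percentage points, overlap was 48.5% and 41.3%, and guide peaks without a control peak made up 20.8% and 22.5%. Median widths were 1231 bp in the control and 909.5 bp with guide 1, the number of peaks on chromosome 20 was 78.6% and 73.4% of the control, and guide 2 had 89.4% of the guide 1 length on chromosome 18.

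With 50% of a peak to be covered, overlap was 36.5% and 32.2% and guide peaks without a control peak 24.8% and 26.9%; with a distance of up to 1000 bp allowed, 64.4% and 62.5%, and 8.56% and 8.07%. The family difference was -2.45 and 1.68 percentage points with windows shortened by 10% at each end, and 1.89 for guide 2 in gene-free intervals.

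Leaving out each chromosome in turn gave a length left of 50.7% to 64.4% and 48.1% to 57.0%, and a number of peaks of 72.2% to 90.2% and 70.1% to 83.2%. Median widths ranged from 1030 to 1169, 763 to 916.5 and 748 to 912.5 bp. Overlap ranged from 55.8% to 68.8% and 52.8% to 62.7%, and guide peaks without a control peak from 11.1% to 14.5% and 9.85% to 15.9%. The family difference in length left ranged from -10.8 to 8.74 and -6.17 to 6.44 percentage points, that in the highest score decile from -20.2 to -7.95 (control), -19.1 to -3.56 and -13.6 to -0.0738, that in pooled overlap from -19.0 to 4.04 and -14.2 to 2.87, and guide 2 had 88.5% to 95% of the guide 1 length. The alternatives for the guide 2 to guide 1 ratio, the score decile and the pooled overlap by family were chosen after seeing the data. No paired analysis was possible because each group has 1 library.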
